A study of Mus musculus with 60 samples.

Results

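The genes described here make and recycle the antioxidants glutathione and thioredoxin, together with Nfe2l2, which encodes their regulator Nrf2. The 10 genes asked for were Nfe2l2, Gclc, Gclm, Gsr, Gss, Txnrd1, Srxn1, Slc7a11, Prdx1 and G6pdx, listed by name, with earlier results of these data known. Of these, 8 had a probe set of their own, out of 18194 genes with one, and all 8 passed the filter on low values that left 12635 genes for testing. The 5 probe sets of Prdx1 are shared with another gene in the platform table, and G6pdx was not analysed here. Where a gene had several probe sets, the one with the highest mean was used.

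The RNA was that of the mouse line Balb/c 3T3, embryo fibroblasts of the BALB/c strain whose growth stops in a crowded dish, measured on single-colour oligonucleotide arrays of 45101 probe sets. In a first series, approach 1, cells received 25 µM 2-acetylaminofluorene (AAF, an aromatic amide that the labels spell 2-Acetylaminoflourene), 0.5 µM benzo(a)pyrene (BaP, a polycyclic aromatic hydrocarbon), 50 µM 2,4-diaminotoluene (DAT, an aromatic amine) or 2 µM 3-methylcholanthrene (MCA, a polycyclic aromatic hydrocarbon) for 24 h and for 120 h. In approach 2, the 24 h dishes were given AAF at 10 µM, BaP at 1.5 µM, DAT at 700 µM or MCA at 20 µM. The 120 h dishes were given AAF at 10 µM, BaP at 0.1 µM, DAT at 0.2 µM or MCA at 0.1 µM. These are concentrations that the labels call IC20. The controls of each approach and time received 0.75% DMSO alone, and the labels give that percentage for the controls only. This made 20 groups of 3 arrays. The replicates are called triplicates without a word on separate cultures, so the p-values below rest on array-to-array spread that may be technical.

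Nrf2 is a transcription factor that is held in the cytoplasm and marked for destruction by Keap1, and electrophiles or oxidants that modify Keap1 let it accumulate and enter the nucleus. There it binds antioxidant response elements with small Maf proteins and raises the genes of glutathione synthesis, of the thioredoxin system and of NADPH supply. Nfe2l2 itself carries such elements and is also known as a target of the aryl hydrocarbon receptor, which BaP and MCA activate. Glutathione is built from glutamate, cysteine and glycine by glutamate-cysteine ligase (Gclc and Gclm) and glutathione synthetase (Gss), with cysteine imported as cystine through Slc7a11 and oxidised glutathione reduced again by Gsr. Txnrd1 reduces thioredoxin, and Srxn1 rescues peroxiredoxins that have been over-oxidised.

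The stretches upstream of the start of 5 of these genes are shown because they hold letters that match the core of the antioxidant response element. The sequences come from RefSeq on build GRCm38.p6 and run over the 250 bases before the annotated start, 5′ to 3′ on the gene's own strand. Capitals mark TGACNNNGC or TGAGNNNGC, the 2 forms searched, on either strand. The positions are chr2:75704664-75704913, minus strand, for Nfe2l2; chr3:122245307-122245556, plus strand, for Gclm; chr10:82858956-82859205, plus strand, for the second of 3 windows of Txnrd1; chr2:152105274-152105523, plus strand, for Srxn1; and chr3:50443614-50443863, minus strand, for Slc7a11.
Nfe2l2: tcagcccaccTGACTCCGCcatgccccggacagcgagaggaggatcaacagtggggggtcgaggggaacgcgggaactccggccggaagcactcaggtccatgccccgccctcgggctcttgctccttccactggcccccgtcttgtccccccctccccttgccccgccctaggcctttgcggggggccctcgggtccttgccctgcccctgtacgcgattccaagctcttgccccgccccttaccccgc
Gclm: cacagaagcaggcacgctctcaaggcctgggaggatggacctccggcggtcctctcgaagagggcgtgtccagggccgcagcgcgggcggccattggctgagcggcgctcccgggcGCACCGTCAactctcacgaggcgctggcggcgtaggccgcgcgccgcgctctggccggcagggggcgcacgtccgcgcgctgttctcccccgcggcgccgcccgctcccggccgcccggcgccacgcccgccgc
Txnrd1: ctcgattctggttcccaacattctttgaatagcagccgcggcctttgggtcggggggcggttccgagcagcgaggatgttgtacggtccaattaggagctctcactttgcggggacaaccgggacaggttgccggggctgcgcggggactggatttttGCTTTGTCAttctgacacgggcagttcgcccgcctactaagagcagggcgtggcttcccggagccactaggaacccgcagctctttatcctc
Srxn1: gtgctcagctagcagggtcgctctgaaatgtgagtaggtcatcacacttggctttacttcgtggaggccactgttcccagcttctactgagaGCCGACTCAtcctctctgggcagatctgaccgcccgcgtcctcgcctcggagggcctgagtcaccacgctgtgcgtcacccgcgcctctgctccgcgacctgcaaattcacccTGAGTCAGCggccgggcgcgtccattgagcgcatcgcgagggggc
Slc7a11: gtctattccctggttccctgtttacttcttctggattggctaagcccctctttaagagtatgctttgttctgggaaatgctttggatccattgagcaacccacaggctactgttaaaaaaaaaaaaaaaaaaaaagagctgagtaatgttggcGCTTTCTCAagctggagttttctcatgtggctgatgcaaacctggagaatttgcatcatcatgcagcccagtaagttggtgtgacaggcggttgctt

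The first base of the marked match lay 240 bases before the start in Nfe2l2, 134 in Gclm, 92 in Txnrd1 and 97 in Slc7a11, and Srxn1 held a match 158 and another 45 bases before its start. The table gave a window of 250 bases before and 50 bases after the start for 8 of the 10 genes, in 10 windows, and Gclc and Gsr had none. One or the other form was found in 7 of those 8 genes, Gss being the exception, and in 7 of their 10 windows. Prdx1 and G6pdx were among the 7. Over all 32851 mouse windows of that length, 27.8% held one of the 2 forms, 12.4% held TGACNNNGC and 17.6% held TGAGNNNGC. The core of the xenobiotic response element that the aryl hydrocarbon receptor binds is GCGTG. It was found for 5 genes, in 7 of the 10 windows, and in 32.4% of all windows. The window of Nfe2l2 did not hold it. The window of Slc7a11 also held TGATGNAA, an element bound by the stress factor Atf4, at 66 bases and again on the other strand at 47 bases before the start, against 3.97% of all windows. No matches of different motifs overlapped, and a match of letters is a description only.

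The deposited values of approaches 1 and 2 were on different scales, with array medians of 41.2 to 47.1 in approach 1 and 56.3 to 98.9 in approach 2. Each approach was therefore normalized and fitted alone, and no level is compared between them. Residual spread was larger in approach 2, with a median SD over genes of 0.218 log2 units, against 0.114 in approach 1, so a change of a given size passed the test more readily in approach 1. Fibroblast markers were present, with a median percentile on the array above 50 for 10 of 10 genes, against 3 of 7 macrophage and leukocyte, 0 of 6 endothelial and 2 of 6 epithelial markers. The log2 ratio of 3′ to 5′ actin signal, which tracks RNA integrity, ranged over 0.20 to 0.51 in approach 1, and over 0.21 to 0.80 in approach 2.

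Across the 16 treatments, 28 of the 128 responses of these genes to treatment passed an adjusted p of 0.05, 27 of them higher than in DMSO and 1 lower. The hydrocarbons BaP and MCA accounted for 23 of their 64 responses and AAF and DAT for 5 of theirs. Over all genes tested the shares were 10.7% for BaP and MCA and 4.2% for AAF and DAT. With the replicate number of the labels as a block, more responses passed, most of the added ones with AAF or DAT. More of all genes passed as well. For 10 µM AAF, 1 of the 8 then passed at 24 h and 1 at 120 h, against 0. Of all genes, 11 and 1082 passed there, against 3 and 71 without the block. Treatments of the same approach and time share their controls, so these responses are not independent. Nfe2l2 passed in 10 of 16 treatments, Srxn1 in 5, Gclc in 4, Txnrd1 in 4, Gclm in 2, Gss in 2, Gsr in 1 and Slc7a11 in 0. Log2 changes below are on the scale of log2(normalized intensity + 16), treated minus DMSO of the same approach and time, ± SE with n = 3 arrays per group, and adjusted p-values are from limma over all 12635 genes. In RNA from a whole dish, fewer cells with a transcript and less of it per cell cannot be told apart.

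**Figure D1:**
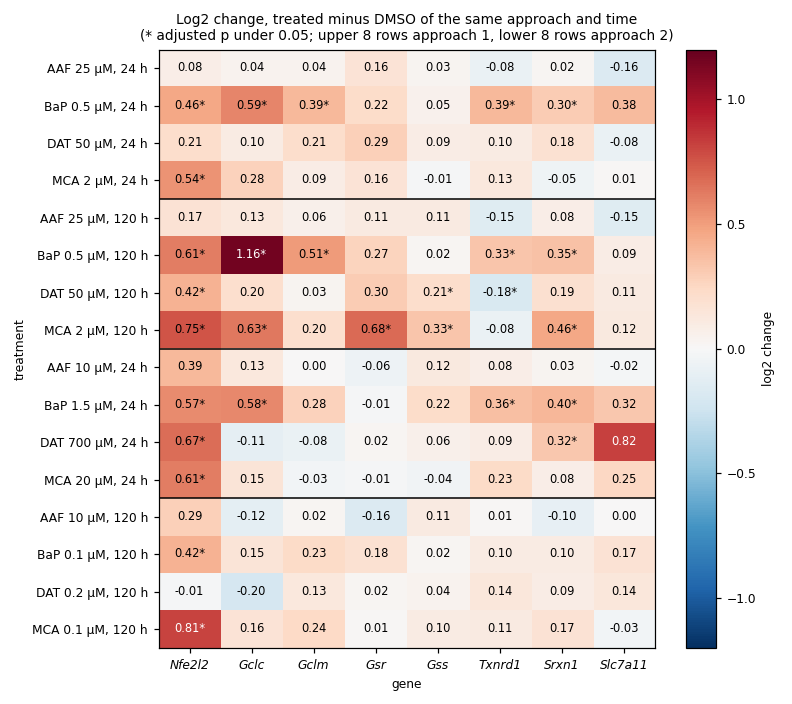
Log2 change of each gene (columns) in each of the 16 treatments (rows), treated minus DMSO of the same approach and time, with a star where the adjusted p was under 0.05. The column of Nfe2l2 is above 0 in 15 of 16 rows, and the highest change of the map is that of Gclc with 0.5 µM BaP at 120 h, at 1.16.

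In approach 1 at 24 h, 5 of the 8 genes rose with 0.5 µM BaP, where 9.43% of all genes changed and 4.52% rose. With 2 µM MCA, 1 of 8 rose (2.22% of all genes changed, 1.08% rose). With 25 µM AAF and with 50 µM DAT none passed, and 0.91% and 0.174% of all genes changed. At 120 h, 5 of 8 rose with 0.5 µM BaP (26.8% of all genes changed, 13.8% rose) and 5 of 8 with 2 µM MCA (39.2% changed, 18.9% rose). With 50 µM DAT, 2 rose and 1 fell (23.8% changed, 11.7% rose and 12% fell), and with 25 µM AAF none passed (0.356% changed). The median of the 8 log2 changes was 0.38 with BaP at 24 h, 0.34 with BaP at 120 h and 0.40 with MCA at 120 h, beside a median over all genes of 0.00, -0.01 and -0.02.

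In approach 2 at 24 h, 4 of the 8 rose with 1.5 µM BaP (2.41% of all genes changed, 1.2% rose), 2 with 700 µM DAT (7.84% changed, 4.19% rose) and 1 with 20 µM MCA (1.31% changed, 0.625% rose). None passed with 10 µM AAF, where 0.0237% of all genes changed. At 120 h, 1 of 8 rose with 0.1 µM BaP (1.44% changed, 0.958% rose) and 1 of 8 with 0.1 µM MCA (2.47% changed, 1.31% rose), and in both cases it was Nfe2l2. None passed with 10 µM AAF (0.562% changed) or with 0.2 µM DAT (0% changed). At an unadjusted p under 0.05, limma gave 0 of the 8 with 25 µM AAF at 24 h, 2 with 25 µM AAF at 120 h, 2 with 50 µM DAT at 24 h, 1 with 10 µM AAF at each time and 0 with 0.2 µM DAT. The shares of all genes under it were 11.9%, 6.36%, 10.4%, 2.27% at 24 h and 9.09% at 120 h, and 5.07% in that order. The median of the 8 log2 changes was 0.34 with 1.5 µM BaP and between 0.01 and 0.16 in the other 7 treatments of approach 2.

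Nfe2l2, the gene for the regulator itself, rose in all 8 treatments with BaP or MCA and in 2 of 4 with DAT, and its change was above 0 in 15 of 16 treatments. With 2 µM MCA at 120 h its normalized intensities were 1465, 1564 and 1559, against 805.8, 947.3 and 953.8 in DMSO. With 0.1 µM MCA at 120 h they were 4275, 5124 and 4210, against 2280, 2941 and 2515 in DMSO of approach 2. In both cases every treated array lay above every control, and the log2 changes were 0.75 ± 0.07 (adjusted p = 1.98e-09) and 0.81 ± 0.10 (adjusted p = 1.07e-05). The other changes with the hydrocarbons at 24 h were 0.46 ± 0.07 for BaP at 0.5 µM and 0.57 ± 0.10 at 1.5 µM, and for MCA 0.54 ± 0.07 at 2 µM and 0.61 ± 0.10 at 20 µM. Their highest adjusted p was 0.00201. At 120 h Nfe2l2 rose by 0.61 ± 0.07 with 0.5 µM BaP (adjusted p = 1.55e-07) and by 0.42 ± 0.10 with 0.1 µM BaP (adjusted p = 0.0371). The last of these had intensities of 3138, 3892 and 3320, against 2280, 2941 and 2515 in DMSO, and it missed the threshold when BaP replicate 2 or 3 or DMSO replicate 1 or 3 was left out, with adjusted p-values up to 0.205. With the 2 probe sets of Nfe2l2 averaged in place of the brighter one, 5 of its 10 calls were lost, all in approach 2: those with 1.5 µM BaP (a change of 0.19), 20 µM MCA (0.41), 0.1 µM BaP (0.21), 0.1 µM MCA (0.60) and 700 µM DAT (0.64), with adjusted p-values of 0.0895 to 0.853. The 5 of approach 1 passed either way.

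With DAT, Nfe2l2 rose by 0.67 ± 0.10 at 700 µM for 24 h (adjusted p = 0.000132) and by 0.42 ± 0.07 at 50 µM for 120 h (adjusted p = 5.72e-05). The intensities at 700 µM were 3461, 3590 and 3610, against 2283, 2153 and 2265 in DMSO, with a gap between the groups. At 50 µM for 24 h the change was 0.21 ± 0.07 (adjusted p = 0.266), and at 0.2 µM for 120 h it was -0.01 ± 0.10. With AAF it did not pass in any of 4 treatments, with changes of 0.08 and 0.17 at 25 µM and 0.39 and 0.29 at 10 µM, for 24 h and 120 h. At 10 µM for 24 h the AAF arrays read 3112, 2799 and 2889, against 2283, 2153 and 2265 in DMSO, so the groups did not overlap although the adjusted p was 0.783. The arrays of one replicate number deviated together in most comparisons, and with that number as a block Nfe2l2 also passed with 50 µM DAT at 24 h (adjusted p = 0.00516), 25 µM AAF at 120 h (adjusted p = 0.0318) and 10 µM AAF at 24 h (adjusted p = 0.000706) and 120 h (adjusted p = 0.00198). In those 4 blocked comparisons 324, 126, 11 and 1082 of all genes passed.

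Ordered by group mean in approach 1, Nfe2l2 stood highest with MCA at 120 h (1529 ± 55.8, SD, n = 3), followed by BaP at 120 h (1383 ± 86.3), DAT at 120 h (1214 ± 93.8), MCA at 24 h (1178 ± 43.8), BaP at 24 h (1113 ± 12.04) and AAF at 120 h (1017 ± 119). Below these came DAT at 24 h (932.8 ± 36.3), DMSO at 120 h (902.3 ± 83.7), AAF at 24 h (848.7 ± 36.9) and DMSO at 24 h (802.6 ± 11.3). Neighbours in this order shared part of their range, except that MCA lay above BaP at 120 h and again at 24 h, and that AAF lay above DMSO at 24 h. In approach 2 the highest mean was that of 0.1 µM MCA at 120 h (4537 ± 510), followed by 700 µM DAT at 24 h (3554 ± 80.8), 0.1 µM BaP at 120 h (3450 ± 394), 20 µM MCA at 24 h (3432 ± 259) and 1.5 µM BaP at 24 h (3321 ± 175). Then came 10 µM AAF at 120 h (3145 ± 372) and at 24 h (2933 ± 161), DMSO at 120 h (2579 ± 335), 0.2 µM DAT at 120 h (2558 ± 246) and DMSO at 24 h (2234 ± 70.5). Of the neighbours in approach 2, 0.1 µM MCA lay wholly above 700 µM DAT and 0.2 µM DAT wholly above DMSO at 24 h, and the other pairs overlapped.

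**Figure D2:**
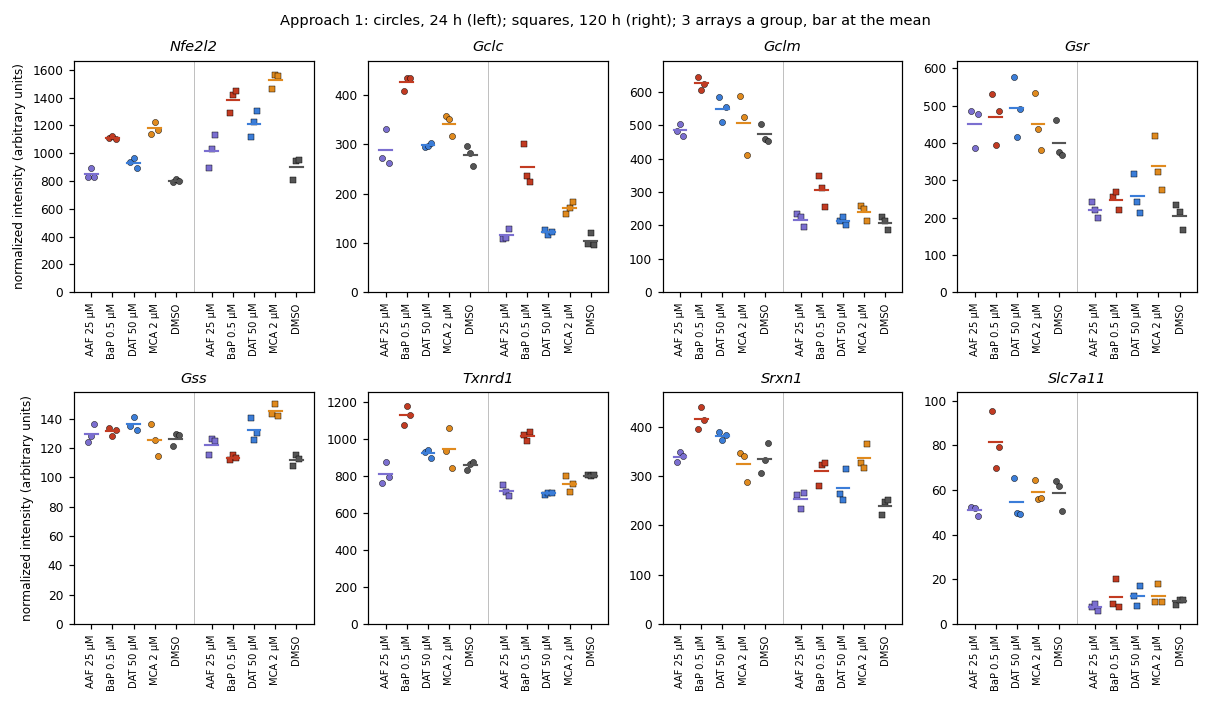
Normalized intensity (arbitrary units, linear axis from 0) of the 8 genes on the 30 arrays of approach 1, with 24 h at the left as circles, 120 h at the right as squares, DMSO at the right of each time and a bar at each mean of 3. Gclc with BaP at 120 h (223.9 to 301.8) stands above all DMSO arrays of 120 h (96.73 to 120), and Slc7a11 reaches at most 20.37 on any array at 120 h.

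Gclc, the catalytic subunit of glutamate-cysteine ligase and the rate-limiting step of glutathione synthesis, passed in 4 treatments, all of them with BaP or MCA. With 0.5 µM BaP at 120 h it read 301.8, 236.8 and 223.9, against 96.97, 120 and 96.73 in DMSO. All 3 BaP arrays lay above all controls, and the change of 1.16 ± 0.10 (2.23-fold, adjusted p = 4.1e-10) was the highest of the 128. At 24 h the same concentration gave 409.3, 435.2 and 433.9, against 297.6, 282.6 and 256.2 in DMSO, a change of 0.59 ± 0.10 (adjusted p = 0.000119). With 2 µM MCA Gclc rose at 120 h, with 158.6, 169.9 and 182.5 against 96.97, 120 and 96.73 in DMSO, by 0.63 ± 0.10 (adjusted p = 7.1e-06). At 24 h the MCA arrays also lay above the controls, at 0.28 ± 0.10, without passing (adjusted p = 0.174). In approach 2 it rose by 0.58 ± 0.13 with 1.5 µM BaP at 24 h (adjusted p = 0.0115), with 1952, 1967 and 1861 against 1404, 1285 and 1174 in DMSO. That call was lost without BaP replicate 1 or 2 or DMSO replicate 2 or 3. With AAF and DAT its changes lay between -0.20 and 0.20 and every group overlapped its controls. At 0.1 µM for 120 h its changes were 0.15 ± 0.13 with BaP and 0.16 ± 0.13 with MCA, again with overlap.

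Gclm, the modifier subunit that lowers the substrate requirement of the ligase, passed with 0.5 µM BaP alone. It read 348, 312.4 and 254.3 at 120 h, against 224.3, 212 and 187.1 in DMSO, a change of 0.51 ± 0.11 (adjusted p = 0.000473). At 24 h it read 643.9, 605.9 and 624.5, against 502.7, 460 and 454.1 in DMSO, a change of 0.39 ± 0.11 (adjusted p = 0.0159), and this call was lost without BaP replicate 1 or DMSO replicate 2 or 3. Neither time had overlapping groups. With 1.5 µM BaP it read 3224, 2615 and 3208, against 2716, 2283 and 2450 in DMSO, where the groups overlapped (0.28 ± 0.13, adjusted p = 0.425). The change with 2 µM MCA at 120 h was 0.20 ± 0.11 (adjusted p = 0.153, and 0.0272 with the replicate number as a block).

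Gss, the synthetase of the second step, moved least among the synthesis genes. It rose with 2 µM MCA at 120 h, with 143.5, 149.8 and 141.6 against 108, 115.4 and 112.7 in DMSO, by 0.33 ± 0.07 (adjusted p = 0.000191). With 50 µM DAT at 120 h it rose by 0.21 ± 0.07 (adjusted p = 0.0195), with 140.8, 125.8 and 130.1 against the same controls, and that call was lost without DAT replicate 1 or DMSO replicate 1. The call was also lost without normalization (adjusted p = 0.307), in a fit shared by both approaches (0.194) and with the compared arrays alone (0.225). With BaP at 120 h, where Gclc changed most, Gss stood at 112, 115.1 and 113.5, inside the range of the controls, and its change was 0.02 ± 0.07 with 95% limits of -0.12 and 0.15.

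Slc7a11, the cystine transporter subunit, did not pass in any of the 16 treatments. Its highest change was 0.82 ± 0.28 with 700 µM DAT at 24 h (adjusted p = 0.0726, and 0.018 with the replicate number as a block), from 322.5, 383.9 and 363.7 against 201.1, 180.7 and 202.2 in DMSO, with no overlap. The SE draws on all 30 arrays of approach 2, among which DMSO at 120 h gave 11.79, 61.24 and 51.62. A fit of the 6 arrays of that comparison alone gave an adjusted p of 0.0184. The next were 0.38 ± 0.15 with 0.5 µM BaP at 24 h (adjusted p = 0.111), also without overlap, and 0.32 ± 0.28 with 1.5 µM BaP. At 120 h in approach 1 it read at most 20.37 on any array, near the constant of 16 added before the log, so changes there are understated and lay between -0.15 and 0.12. At 120 h in approach 2 the treated arrays read 28.17 to 62.31, against 11.79 to 61.24 in DMSO.

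Gsr, which reduces glutathione disulphide with NADPH, rose with 2 µM MCA at 120 h and in no other treatment. It read 418.7, 322.8 and 274.6 with MCA, against 233.7, 214 and 166.1 in DMSO, a change of 0.68 ± 0.16 (adjusted p = 0.00116). The lowest MCA array lay above the highest control. With 0.5 µM BaP at 120 h it read 255.1, 269.7 and 219.1 against the same controls, a change of 0.27 ± 0.16 (adjusted p = 0.241, and 0.0144 with the replicate number as a block). With 50 µM DAT at 120 h it read 317.7, 242 and 211.1, a change of 0.30 ± 0.16 that did not pass, and the lowest array lay within the controls. In approach 2 its changes lay between -0.16 and 0.18, and every treated group overlapped its controls.

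Txnrd1, the cytosolic thioredoxin reductase, rose with BaP and was the one gene that fell with a treatment. With 0.5 µM BaP it read 1080, 1182 and 1133 at 24 h, against 833.9, 865.1 and 877.9 in DMSO, and 1026, 989.1 and 1038 at 120 h, against 804.4, 799.2 and 807 in DMSO. The changes were 0.39 ± 0.06 (adjusted p = 6.29e-05) and 0.33 ± 0.06 (adjusted p = 0.000132), with no overlap at either time. With 1.5 µM BaP it rose by 0.36 ± 0.08 (adjusted p = 0.0161), with 4625, 5040 and 4294 against 3423, 3675 and 3713 in DMSO, a call lost without BaP replicate 1 or 2 or DMSO replicate 1 or 2. That call was also lost in a fit of the compared arrays alone (adjusted p = 0.121) and with all probe sets averaged (0.888). With 50 µM DAT at 120 h Txnrd1 fell, with 700.9, 711 and 709 against 804.4, 799.2 and 807 in DMSO, a change of -0.18 ± 0.06 (adjusted p = 0.0329). The 2 groups were each tight and did not overlap, but the call was lost when any 1 of the 6 arrays was left out, with adjusted p-values up to 0.0792, and it was also lost without normalization (0.0756), in a fit shared by both approaches (0.122) and with all probe sets averaged (0.501). With 2 µM MCA at 120 h, where Nfe2l2, Gclc, Gsr, Gss and Srxn1 rose, Txnrd1 changed by -0.08 ± 0.06, with 95% limits of -0.21 and 0.05. With 25 µM AAF at 120 h it read 755, 715.4 and 695.5 against the same controls, all lower, but the change of -0.15 ± 0.06 did not pass (adjusted p = 0.543).

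Srxn1, sulfiredoxin, rose in 5 treatments, of which 4 were with BaP or MCA. With 2 µM MCA at 120 h it read 327.1, 316.2 and 366.2, against 221.9, 247.2 and 251 in DMSO, a change of 0.46 ± 0.09 (adjusted p = 8.18e-05). With 0.5 µM BaP at 120 h it read 280.1, 323 and 327 against the same controls, a change of 0.35 ± 0.09 (adjusted p = 0.00272). Both groups lay wholly above the controls. At 24 h it rose by 0.30 ± 0.09 with 0.5 µM BaP (adjusted p = 0.0215), by 0.40 ± 0.09 with 1.5 µM BaP (adjusted p = 0.0144) and by 0.32 ± 0.09 with 700 µM DAT (adjusted p = 0.0296). With 700 µM DAT the arrays read 1568, 1601 and 1627, against 1286, 1251 and 1305 in DMSO. Each of the 3 calls depended on single arrays. That with DAT was lost when any 1 of the 6 was left out. That with 1.5 µM BaP was lost without BaP replicate 2 or 3 or DMSO replicate 1 or 2, and that with 0.5 µM BaP without BaP replicate 2 or 3 or DMSO replicate 1 or 2. With all probe sets averaged, the call of Srxn1 with 0.5 µM BaP at 120 h was lost (a change of 0.17, adjusted p = 0.078). Those with 1.5 µM BaP (0.18, adjusted p = 0.891) and 700 µM DAT (0.13, adjusted p = 0.877) were lost in the same way.

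**Figure D3:**
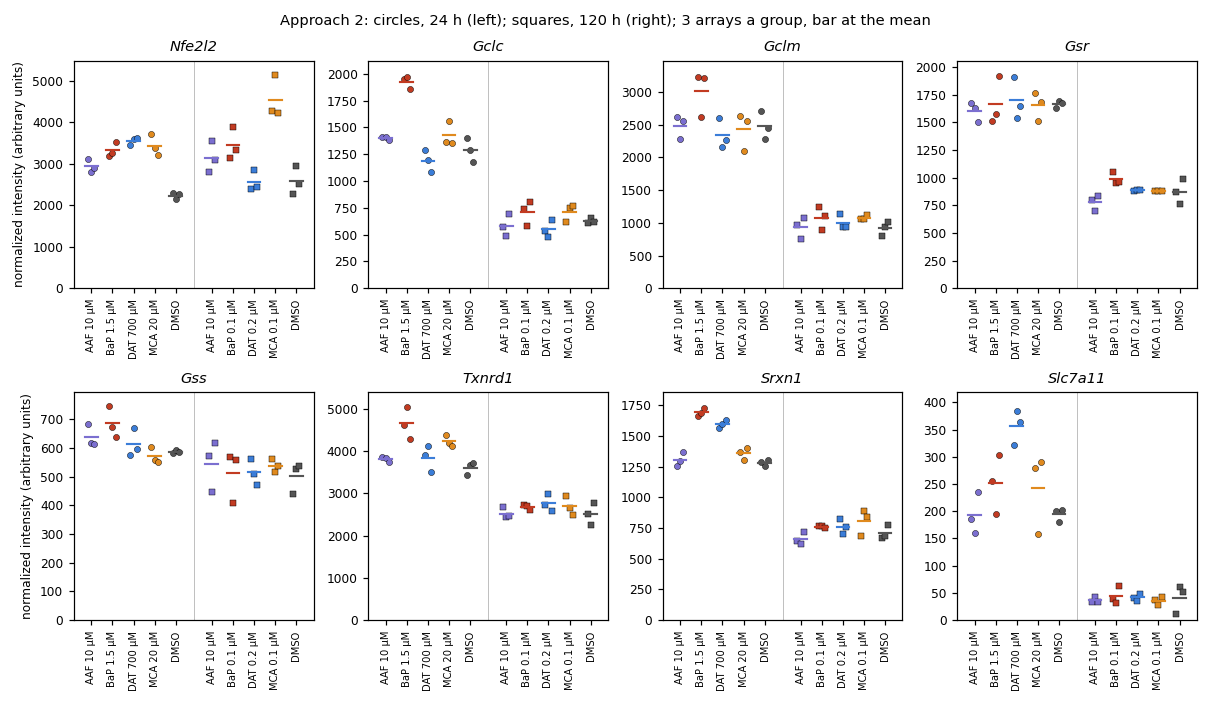
Normalized intensity (arbitrary units, linear axis from 0) of the 8 genes on the 30 arrays of approach 2, with 24 h at the left as circles, 120 h at the right as squares, DMSO at the right of each time and a bar at each mean of 3. Nfe2l2 with 0.1 µM MCA at 120 h (4210 to 5124) lies above DMSO at 120 h (2280 to 2941), and Slc7a11 with 700 µM DAT at 24 h (322.5 to 383.9) lies above DMSO at 24 h (180.7 to 202.2).

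Some array measures differed along with these changes. In the arrays of 0.5 µM BaP at 120 h the actin ratio was 0.39 to 0.51, against 0.28 to 0.33 in DMSO, without overlap, and with 2 µM MCA it was 0.27 to 0.33, within the span of the controls. The summed intensity of the 10 fibroblast markers was 39670 to 42250 with 0.5 µM BaP and 42990 to 45250 with 2 µM MCA at 120 h, against 49250 to 52880 in DMSO. The summed intensity of the 7 macrophage and leukocyte markers was 678.2 to 702.5 with BaP and 597.7 to 737 with MCA, against 592 to 686 in DMSO. Among the fibroblast markers 5 of 10 fell and 1 rose with BaP, and 7 of 10 fell and 2 rose with MCA. Of all genes, 26.8% changed and 13.8% rose with BaP at 120 h, and 39.2% changed and 18.9% rose with MCA at 120 h. Of the 7 macrophage and leukocyte markers, Ptprc, Cd68, Adgre1 and Itgam had a median percentile on the array of 48.8 or lower, and Csf1r, Cd14 and Lyz2 lay at 65.0, 71.1 and 73.0. Among the 5 tested, Cd14 (0.68) and Cd68 (0.42) rose with BaP at 120 h, and Cd14 rose (0.70) and Lyz2 changed by -0.37 with MCA. With 0.5 µM BaP at 24 h, the sum of these markers was 605.7 to 681.2, against 504.9 to 588.6 in DMSO, with Cd14 at 0.62, and the fibroblast sum was 34940 to 36290, against 36490 to 39050, with Pdgfrb at -0.63, so that neither overlapped. With 700 µM DAT the macrophage and leukocyte sum was 1116 to 1293, against 894.4 to 1043 in DMSO, with Cd14 at 0.58. The part of these measures in the results was not tested.

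Setting the 120 h controls against the 24 h controls shows the course of these genes in culture without a chemical. In each approach 6 of the 8 fell and none rose, where 57.7% of all genes changed and 28.5% fell in approach 1, and 40.2% changed and 22.4% fell in approach 2. The median of the 8 was -0.69 and -0.88, beside a median over all genes of 0.00 and -0.05. Slc7a11, Gclc and Gclm had the largest falls of the 8. Slc7a11 changed by -1.52 ± 0.15 in approach 1, with 8.413, 10.9 and 10.94 at 120 h against 63.89, 61.99 and 50.46 at 24 h, and by -2.0 ± 0.28 in approach 2 (adjusted p = 7.31e-10 and 2.21e-06). The 120 h values of approach 1 lay below the constant of 16 added before the log, so that fall is understated. Gclc changed by -1.29 ± 0.10 and -1.01 ± 0.13 (adjusted p = 5.6e-12 and 4.93e-07), with 96.97, 120 and 96.73 at 120 h against 297.6, 282.6 and 256.2 at 24 h in approach 1. Gclm changed by -1.13 ± 0.11 and -1.43 ± 0.13 (adjusted p = 4.65e-10 and 3.91e-09), with 805.6, 933.1 and 1006 at 120 h against 2716, 2283 and 2450 at 24 h in approach 2.

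Gsr fell in both approaches, with a change of -0.93 in each and SEs of 0.16 and 0.10 (adjusted p = 1.42e-05 and 7.21e-08), and Srxn1 changed by -0.46 ± 0.09 and -0.84 ± 0.09 (adjusted p = 4.2e-05 and 4e-08). Gss passed in approach 1 (-0.15 ± 0.07, adjusted p = 0.0462) and not in approach 2 (-0.23 ± 0.13, adjusted p = 0.161), and the call was lost without any 1 of DMSO 24 h replicates 2 and 3 and DMSO 120 h replicates 1, 2 and 3. That call was also lost without normalization (-0.09, adjusted p = 0.533) and without the filter on low values (0.0757). It did not hold in a fit shared by both approaches (0.212), with the compared arrays alone (0.198) or with all probe sets averaged (0.085). Txnrd1 passed in approach 2 (-0.53 ± 0.08, adjusted p = 1.55e-05) and not in approach 1 (-0.09 ± 0.06). For 7 of the 8 genes the 120 h controls lay wholly below the 24 h controls in both approaches, as they did for 20.6% of all genes (29.6% in approach 1 and 27.4% in approach 2). The exception was Nfe2l2, with changes of 0.16 ± 0.07 and 0.20 ± 0.10 (adjusted p = 0.0537 and 0.134) and overlapping groups. In approach 1 the log2 ratio of 3′ to 5′ Gapdh signal was -0.20 to -0.16 at 120 h, against -0.31 to -0.25 at 24 h, and in approach 2 that of actin was 0.40 to 0.64 at 120 h, against 0.21 to 0.35 at 24 h. Their part in the falls was not tested.

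**Figure D4:**
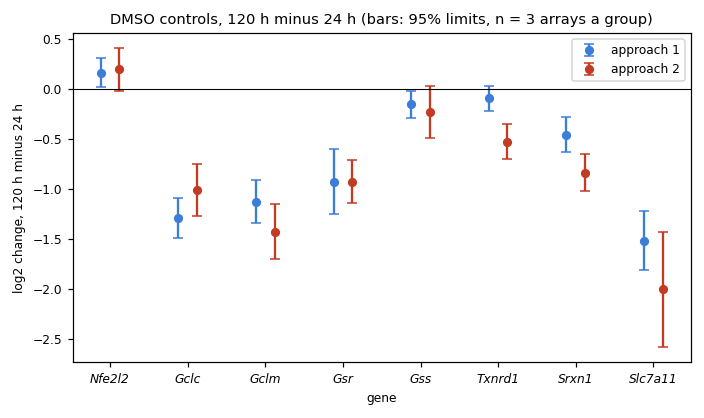
Log2 change in the DMSO controls, 120 h minus 24 h, for the 8 genes in approach 1 (blue) and approach 2 (red), with bars at the 95% limits from 3 arrays per group. The points of Gclc, Gclm, Gsr, Srxn1 and Slc7a11 lie between -0.46 and -2.0 with limits below 0, and both points of Nfe2l2 lie above 0.

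For the genes whose controls fell, a rise at 120 h was measured from a lower level, which does not hold for Nfe2l2. Gclc with 0.5 µM BaP at 120 h averaged 254.2 ± 41.7 (SD, n = 3), close to the 278.8 ± 21.0 of DMSO at 24 h. The response at 120 h minus that at 24 h was tested where a chemical had the same concentration at both times. Gclc responded to 0.5 µM BaP more at 120 h, by 0.57 ± 0.14 (adjusted p = 0.00693), and was the one gene of 8 to pass, where 8.52% of all genes passed, 5.03% with a larger response at 120 h. Without normalization the difference was 0.55 and did not pass (adjusted p = 0.0706). With 2 µM MCA, Gss and Srxn1 responded more at 120 h, by 0.34 ± 0.09 and 0.51 ± 0.12 (adjusted p = 0.00637 and 0.00222), 2 of 8 where 28.2% of all genes passed, 14.8% upward. That of Gss was lost without normalization (adjusted p = 0.177) and in a fit shared by both approaches (0.0988). With 50 µM DAT, Txnrd1 passed at -0.28 ± 0.09 (adjusted p = 0.041), 1 of 8 where 8.21% of all genes passed, 3.29% downward, and it was lost without normalization (0.103), without the filter on low values (0.0589) and in the shared fit (0.185). In all, 4 of the 40 tests passed, or 10%, against 8.99% of the same tests over all genes, a share near the background. None of 8 passed with 25 µM AAF (0.0554% of all genes) or 10 µM AAF (0%), and none had an unadjusted p under 0.05 in either, where 6.95% and 3.93% of all genes did. The response of Nfe2l2 did not pass in any of these 5 tests, with differences between -0.10 and 0.21.

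BaP and MCA, both polycyclic aromatic hydrocarbons, shared a concentration and time once, at 0.1 µM for 120 h, and this single pair was compared for the 8 genes. None passed by limma, 1 had an unadjusted p under 0.05 where 3.19% of all genes did, and 0.0791% of all genes passed. Nfe2l2 read 3138, 3892 and 3320 with BaP, against 4275, 5124 and 4210 with MCA, so that all BaP arrays were lower, with a difference of -0.39 ± 0.10, 95% limits of -0.61 and -0.18 and an adjusted p of 0.343 (0.000274 with the replicate number as a block). For the other 7 genes the differences lay between -0.08 and 0.20. The narrowest limits were those of Txnrd1, -0.18 and 0.17, and the widest those of Slc7a11, -0.38 and 0.77. Cyp1a1, the cytochrome induced through the aryl hydrocarbon receptor, was lower with BaP, with a difference of -1.90 ± 0.17 (adjusted p = 4.06e-07). For scale, Cyp1a1 rose by 5.45 ± 0.17 with BaP and 7.35 ± 0.17 with MCA over DMSO in this setting. Its rise was not limited to the hydrocarbons. With 700 µM DAT at 24 h it rose by 5.15 ± 0.17. The rises at 24 h with 1.5 µM BaP and 20 µM MCA were 5.10 ± 0.17 and 5.04 ± 0.17. Cyp1a1 rose by 3.91 ± 0.12 with 50 µM DAT at 120 h. With 10 µM AAF it rose by 3.12 ± 0.17 at 24 h and 3.82 ± 0.17 at 120 h. With 0.2 µM DAT at 120 h it changed by 0.01 ± 0.17. Outside 0.1 µM at 120 h the concentrations of BaP and MCA differed, and no test between them was run.

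Other genes that Nrf2 is known to activate moved with the same treatments. Of 7 measured other targets, 6 rose with 0.5 µM BaP at 24 h and 4 at 120 h, 3 with 1.5 µM BaP, 4 with 50 µM DAT at 120 h and 3 with 2 µM MCA at 120 h, and none fell in the 16 treatments. Over all genes 4.52%, 13.8%, 1.2%, 11.7% and 18.9% rose in those comparisons. Nqo1, a quinone reductase that is a target of the aryl hydrocarbon receptor as well, rose by 1.55 ± 0.13 and 0.97 ± 0.13 with 0.5 µM BaP at 24 h and 120 h, by 1.99 ± 0.13 with 2 µM MCA at 120 h and by 1.16 ± 0.13 with 50 µM DAT at 120 h. Osgin1, an oxidative stress-induced growth inhibitor, rose by 1.09 ± 0.11 with 0.5 µM BaP at 120 h and at 0.1 µM for 120 h by 1.15 ± 0.23 for BaP and 1.05 ± 0.23 for MCA. Hmox1, heme oxygenase 1, rose with 0.5 µM BaP at 24 h (0.44 ± 0.09, adjusted p = 0.00199) and changed by -0.09 ± 0.09 at 120 h. The targets of Atf4, another activator of Slc7a11, numbered 12, of which 5 rose and none fell with 700 µM DAT at 24 h (median 0.42, all genes 0.00, of which 4.19% rose). For BaP at 0.5 µM and 120 h 10 of 12 rose (median 0.47, all genes -0.01, of which 13.8% rose).

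The counts in the other lists are read against the shares of all genes that changed at 120 h, 26.8% with 0.5 µM BaP, 39.2% with 2 µM MCA and 23.8% with 50 µM DAT, and several lay near them. Among 9 regulators of Nrf2, 3 rose and none fell with 0.5 µM BaP at 120 h, and 3 rose and 1 fell with 2 µM MCA at 120 h, both near those shares. Keap1 rose by 0.46 ± 0.06 with BaP at 120 h (adjusted p = 8.46e-07). Of 9 thioredoxins and peroxiredoxins, 3 rose and 1 fell with 2 µM MCA at 120 h, again near the share of all genes, with mitochondrial thioredoxin Txn2 at 0.59 ± 0.09 and Txnrd3, the thioredoxin reductase known from testis, at -0.61 ± 0.10. With 50 µM DAT at 120 h 2 rose and 1 fell, with Txn2 at 0.39 ± 0.09 and Txnrd3 at -0.36 ± 0.10. Of 5 genes of NADPH supply, 3 rose with BaP at 120 h, with the malic enzyme Me1 at 0.51 ± 0.07 and the pentose phosphate enzyme Pgd at 0.39 ± 0.07. Of 7 genes of glutathione transport, export and breakdown, 3 rose and 1 fell with BaP at 120 h, with Chac1, which degrades glutathione, at 0.89 ± 0.06 and the exporter Abcc1 at 0.37 ± 0.06. Of 7 glutathione peroxidases and glutaredoxins tested, 2 rose and 1 fell with BaP at 120 h, with Gpx4, which reduces lipid peroxides, at 0.42 ± 0.08.

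Over time in the controls, where 28.5% and 22.4% of all genes fell, 4 of the 5 NADPH genes fell and 1 rose in each approach, with Me1 at -0.96 ± 0.07 and -1.09 ± 0.15. Of the 9 thioredoxins and peroxiredoxins, 7 fell and 1 rose in approach 1 and 6 fell and 1 rose in approach 2, with thioredoxin Txn1 at -0.92 ± 0.07 and -0.84 ± 0.07 and with the thioredoxin inhibitor Txnip at 0.66 ± 0.07 in approach 1. Bach1, a repressor that competes with Nrf2 for its elements, rose by 0.76 ± 0.08 and 0.98 ± 0.13. Keap1 changed by -0.25 ± 0.06 in approach 1 and by -0.42 ± 0.10 in approach 2. Of the 12 Atf4 targets, 7 fell and 2 rose in approach 1 and 6 fell and 1 rose in approach 2, led by the serine synthesis enzyme Psat1 at -2.19 ± 0.06 and -1.76 ± 0.18. The 7 other Nrf2 targets were split, with 3 higher and 2 lower in approach 1 and 2 higher and 3 lower in approach 2. Of all genes, 57.7% and 40.2% changed. Nqo1 changed by -1.31 ± 0.13 and -0.87 ± 0.12, and Ephx1 rose by 0.62 ± 0.07 and 0.92 ± 0.09. Of the 7 genes of glutathione transport, export and breakdown, 3 rose and 3 fell in each approach. Of the 9 regulators of Nrf2, 4 rose and 3 fell in approach 1 and 2 rose and 2 fell in approach 2.

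The mean log2 change of the 8 genes was 0.42 with 0.5 µM BaP at 120 h, 0.39 with 2 µM MCA at 120 h, 0.35 with 0.5 µM BaP at 24 h and 0.34 with 1.5 µM BaP, and between 0.01 and 0.22 in the other 12 treatments. Over the 16 treatments Srxn1 followed this mean, of which each gene is a part, most closely (Pearson's r = 0.89), ahead of Gclc (0.85), Nfe2l2 (0.71) and Gclm (0.70), and Gss least (0.30). Outside the 8, the 5 genes most like it were the carbonyl reductase Cbr3 (0.95), Ddx52 (0.94), the cytokine receptor subunit Il12rb1 (0.91), Card19 (0.90) and the glutathione transferase Mgst2 (0.89). These correlations describe 16 points that share controls within an approach and time, and they carry no test.

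The other probe sets of these genes followed the ones used to differing degrees. Over the 16 treatments, the log2 changes of the second probe set correlated with those of the one used at r = 0.89 for Gclc, 0.78 for Gsr, 0.68 for Gclm, 0.59 for Gss, 0.49 for Slc7a11 and 0.26 for Nfe2l2, and the most alike were at r = 0.71 for Txnrd1 and 0.63 for Srxn1. That of Gclc rose by 0.89 with 0.5 µM BaP at 120 h and that of Gsr by 0.69 with 2 µM MCA at 120 h, as the ones used did. That of Slc7a11, at the 43.1th median percentile of the array, rose by 0.70 with 0.5 µM BaP at 120 h, where the one used changed by 0.09 without passing. The second probe set of Nfe2l2 lay at the 50.9th median percentile and changed by -0.02 with 2 µM MCA at 120 h, without passing, while it rose by 0.89 with 2 µM MCA at 24 h and by 0.84 with 0.5 µM BaP at 120 h. One probe set of Srxn1 and 1 of Txnrd1 correlated at r = 0.19, and with 50 µM DAT at 120 h the other probe sets of Txnrd1 changed by -0.09 and -0.02, without passing.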

How the data were processed

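RNA of Balb/c 3T3 cells was measured on 60 single-colour arrays, 3 for each of 20 groups. The deposited values are linear signal intensities per probe set from GCOS (version not given), per the submitters' processing notes, and each approach had its own scale. Probe sets were named through GEO's platform annotation with symbols updated through RefSeq: 34958 had 1 symbol, 932 several and 9211 were not listed, and 204 symbols could not be updated. For each gene the probe set with the highest mean log2 value stood for it.

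The log2(intensity + 16) was taken and then quantile-normalized within each approach, and normalized intensities are these values turned back to the linear scale. Genes above their array's median on at least 3 arrays were kept, 12635 of 18194. Each approach (30 arrays, 10 groups, 20 residual degrees of freedom) was fitted alone with limma (lmFit, eBayes with a trend; two-sided; Benjamini-Hochberg over all genes kept; threshold 0.05) in 24 comparisons. Quantile normalization sets the spread of all arrays alike, so a shift of all genes would not be seen. The number of arrays limits the precision.

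The members and all other lists were chosen with earlier results of these data known. All members are named. Of another list at most the 2 genes that passed with the highest absolute change are named. Added to these were Hmox1, Nqo1, Cyp1a1, Keap1 and the 5 genes most like the members' mean response. The 7 macrophage and leukocyte markers are an exception and are all named. Prdx1 (only probe sets shared with another gene) and G6pdx were not analysed here. Whether the replicate numbers of the labels pair the arrays was judged from the correlation of same-numbered arrays' deviations, over 0.1 for all 3 numbers in 14 of 19 comparisons between 2 groups. The exceptions were 2 µM MCA at 24 h, 50 µM DAT at 120 h, 0.1 µM BaP, 0.2 µM DAT, and the controls over time in approach 1. The alternatives were a constant of 1, no normalization, no filter on low values, a shared fit of 60 arrays, a fit of the compared arrays alone, the replicate number as a block, the mean of all probe sets and leaving out each array in turn. A block shared by both times for the controls was added after seeing the data. The fits were tested on simulated data. Python 3.11.15 (numpy 2.4.6, pandas 2.3.3, matplotlib 3.10.9) and R 4.3.3 with limma 3.58.1 were used.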

Additional observations from a re-analysis of the deposited data

Results flagged for a closer look

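The response of 4 gene and chemical pairs differed between 120 h and 24 h by a test of the difference itself in limma, with adjusted p over all genes. These were 4 of 40 tests, or 10%, against 8.99% of the same tests over all genes, which is near the background. Gclc responded to 0.5 µM BaP by 1.16 at 120 h and by 0.59 at 24 h, a difference of 0.57 on the log2 scale (adjusted p = 0.00693, and 0.0706 without normalization). Srxn1 responded to 2 µM MCA by 0.46 at 120 h and by -0.05 at 24 h, a difference of 0.51 (adjusted p = 0.00222). Gss responded to 2 µM MCA by 0.33 at 120 h and by -0.01 at 24 h, a difference of 0.34 (adjusted p = 0.00637, and 0.177 without normalization). Txnrd1 responded to 50 µM DAT by -0.18 at 120 h and by 0.10 at 24 h, a difference of -0.28 (adjusted p = 0.041), and this call was lost in 11 of the 12 fits that left out 1 array. The DMSO controls of Gclc, Srxn1 and Gss were lower at 120 h than at 24 h, and the part of that fall in the differences was not tested.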

How the results depend on the processing

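Over 24 comparisons, the number of the 8 genes that passed kept within 1.5 times its value with a constant of 1, and no log2 change that passed in either fit turned its sign under any alternative. Without a filter on low values, the difference of the DAT 50 µM response between times had 0 genes, against 1. Without normalization, 0.1 µM BaP had 0 genes against 1, 50 µM DAT at 120 h had 1 against 3, and the differences between times had 0 against 1 for BaP, 0 against 1 for DAT and 1 against 2 for MCA. Normalization moved the median of all genes by over 0.1 only in the controls over time in approach 2, where it was 0.11 without it and -0.05 with it.

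A shared fit of 60 arrays gave 1 gene with 10 µM AAF at 24 h and 1 between 0.1 µM BaP and MCA, where there were 0, 1 with 50 µM DAT at 120 h against 3, and for the differences between times 0 with DAT against 1 and 1 with MCA against 2. Fitting the compared arrays alone gave 0 with 0.1 µM BaP against 1 and 2 with 1.5 µM BaP against 4. Averaging all probe sets of a gene gave 1 with 1.5 µM BaP against 4, 2 with 2 µM MCA at 24 h against 1, and 0 against 2 with 700 µM DAT and 0 against 1 with 20 µM MCA, 0.1 µM BaP and 0.1 µM MCA. It ended 10 of the 28 calls with a treatment, 5 of them of Nfe2l2, and 13 of the 28 were lost under at least 1 alternative other than leaving out an array. The fits of the compared arrays alone rest on fewer arrays. The cause of the lost calls was not tested.

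With the replicate number as a block, 1 gene, Nfe2l2, passed with 50 µM DAT at 24 h, 25 µM AAF at 120 h, 10 µM AAF at both times and between 0.1 µM BaP and MCA, against 0 in each. The difference between times had 2 genes with DAT against 1 and 6 with MCA against 2, where the numbers did not pair all of the arrays. A block over both times for the controls gave 7 genes in approach 1, against 6, and 6 in approach 2. Gsr also passed with 50 µM DAT at 120 h (adjusted p = 0.00696), where the numbers did not pair all of the arrays either. The block ended no call. It raised the number of all genes passing by more than 1.5 times in 18 of 24 comparisons, for example to 2097 against 1192 with 0.5 µM BaP at 24 h and 1359 against 304 with 1.5 µM BaP. The shared fit gave 374 and 821 in those comparisons, the fit of the compared arrays alone 662 and 79, and the fit without normalization 576 and 445.

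Leaving out 1 array at a time gave 3 to 4 genes with 0.5 µM BaP at 24 h (5 with all arrays), 1 to 2 with 50 µM DAT at 120 h (3), 1 to 3 with 1.5 µM BaP (4), 1 with 700 µM DAT (2) and 0 to 1 with 0.1 µM BaP (1). The differences between times gave 0 to 1 with DAT (1) and 2 to 4 with MCA (2), and the controls over time in approach 1 gave 5 to 6 (6). For the 120 h treatments with 0.5 µM BaP or 2 µM MCA it was 5 each time.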
